A study of Homo sapiens with 3 samples.

Results

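Away from protein-coding genes, 597 peaks of acetylated histone H3 lysine 27 (H3K27ac) over long noncoding RNA genes were called both after the BPP peptide and in the control. They were chosen by measured peak calls and gene positions: each row of the BPP peak list shares 1 bp or more with a CTR peak and none with an IgG peak. Each lay outside every protein-coding gene and a window of 1 kb on either side of its ends and overlapped a gene of biotype lncRNA or its 1 kb end windows. They were 597 of 17841 BPP peaks on chromosomes 1 to 22 and X. The cells were A2780, an established human ovarian carcinoma line. The BPP peptide, given to the cells of the BPP library, is described in the series design as a competitor for BIN2 phosphorylation at 1 site. H3K27ac was also profiled in control cells (CTR), and an IgG library measured background. The labels and series text used here do not state what the CTR cells received. Each group had 1 library, so no difference between BPP and CTR has a replicate check or a p-value, and read depth is unknown. Each peak's fold and −log10 q come from the authors' lists and describe peaks within a list; where both lists are given for 1 place, the difference is not read as a change.

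H3K27ac marks active promoters and enhancers. A long noncoding RNA (lncRNA) is a transcript without a protein product; some act as RNA, others host small RNAs in their introns, and for others the act of transcription or an enhancer inside the gene is what is known to matter. CUT&Tag cuts DNA beside the antibody without strand, so a peak over a lncRNA gene may belong to the lncRNA start, to an enhancer inside the gene or to another small gene at the same place, and these lists do not measure RNA.

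Sequence at 6 lncRNA starts that lay under such peaks is shown because these starts belong to genes named in the results and differ in CpG content. Each run is the RefSeq promoter (GRCh38.p14) from 250 bases before to 50 bases after the annotated start, 5′ to 3′ on the gene's strand, with every CpG in capitals.
LOC105379574 (chr1:144551965-144552264, plus strand): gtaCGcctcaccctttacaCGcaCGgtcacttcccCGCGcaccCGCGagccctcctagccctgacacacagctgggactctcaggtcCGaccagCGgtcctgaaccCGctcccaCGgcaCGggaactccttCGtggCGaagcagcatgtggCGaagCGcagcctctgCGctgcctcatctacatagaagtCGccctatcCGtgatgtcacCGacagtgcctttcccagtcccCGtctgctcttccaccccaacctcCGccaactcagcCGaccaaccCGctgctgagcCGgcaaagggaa
LINC01719 (chr1:146052346-146052645, plus strand): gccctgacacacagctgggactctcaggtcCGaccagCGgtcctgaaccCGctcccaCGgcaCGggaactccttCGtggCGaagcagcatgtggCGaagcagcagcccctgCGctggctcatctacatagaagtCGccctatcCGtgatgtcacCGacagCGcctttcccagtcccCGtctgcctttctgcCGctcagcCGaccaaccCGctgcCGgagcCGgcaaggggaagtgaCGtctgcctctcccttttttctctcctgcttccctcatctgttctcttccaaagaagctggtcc
LOC105374852 (chr2:88016389-88016688, plus strand): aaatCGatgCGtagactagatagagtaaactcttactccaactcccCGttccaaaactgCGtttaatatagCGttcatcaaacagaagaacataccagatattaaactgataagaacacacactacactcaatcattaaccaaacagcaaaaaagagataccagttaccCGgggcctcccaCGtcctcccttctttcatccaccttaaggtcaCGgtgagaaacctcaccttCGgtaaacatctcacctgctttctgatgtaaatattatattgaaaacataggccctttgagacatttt
MALAT1 (chr11:65497488-65497787, plus strand): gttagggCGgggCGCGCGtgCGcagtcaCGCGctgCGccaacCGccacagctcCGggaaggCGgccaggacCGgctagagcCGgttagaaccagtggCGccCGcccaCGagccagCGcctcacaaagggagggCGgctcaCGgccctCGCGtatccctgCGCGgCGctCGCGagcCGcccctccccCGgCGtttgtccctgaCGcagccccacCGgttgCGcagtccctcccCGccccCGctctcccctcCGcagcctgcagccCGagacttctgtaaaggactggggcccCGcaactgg
PCAT7 (chr9:94554349-94554648, plus strand): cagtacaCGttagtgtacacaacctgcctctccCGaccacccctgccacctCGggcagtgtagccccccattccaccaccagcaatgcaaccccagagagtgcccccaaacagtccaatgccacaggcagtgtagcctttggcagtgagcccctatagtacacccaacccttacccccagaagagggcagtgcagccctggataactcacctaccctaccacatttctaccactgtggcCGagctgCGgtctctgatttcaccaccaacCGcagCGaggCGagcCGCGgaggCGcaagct
SNHG33 (chr3:183447401-183447700, plus strand): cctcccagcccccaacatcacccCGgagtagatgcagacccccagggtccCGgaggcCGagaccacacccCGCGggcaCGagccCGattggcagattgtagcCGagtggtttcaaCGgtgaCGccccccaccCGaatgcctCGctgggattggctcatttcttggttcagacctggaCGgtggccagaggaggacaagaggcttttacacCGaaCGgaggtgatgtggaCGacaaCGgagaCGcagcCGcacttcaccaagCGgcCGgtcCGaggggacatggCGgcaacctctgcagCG
The first pair lay under the strongest peaks at a lncRNA start and share a run of 100 identical bases. MALAT1 had 37 CpG in its 300 bases, SNHG33 24, PCAT7 11 and LOC105374852 9.

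Of 1269 intergenic BPP peaks over lncRNA genes without IgG overlap, 597 also overlapped a CTR peak (47.04%), and 672 did not. The share over all BPP peaks was 50.04%. The rule used this overlap, and nothing is read from it. A further 22 shared peaks at such places overlapped an IgG peak and were left out. All but 7 of the 597 overlapped a single CTR peak. The overlap covered a median of 83.1% of the BPP peak (quartiles 62.7 to 97.4%), and the summits lay a median of 113 bp apart. Overlap of at least 50% of both peaks held for 460 of the 597 (77.1%), against 74.5% of all 8665 shared BPP peaks without IgG. At the edges of the rule, the smallest overlap was 2 bp at LOC105374151, and the members closest to a coding gene lay 1001 bp (LOC105375690, fold 4.03) and 1012 bp (LOC107984421, fold 4.38) from it. The nearest shared peaks just inside the coding window were at LOC124906238 (978 bp, fold 2.92) and ABHD16B-AS1 (937 bp, fold 3.56).

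The peaks had a median fold of 4.52 in BPP (range 1.86 to 13.8) and 4.59 in CTR (1.85 to 14.7). Median −log10 q was 10.2 in BPP and 8.68 in CTR, and median width 628 bp in BPP and 612 bp in CTR. A BPP fold of 5 or more was reached by 233 of the 597 peaks (39.0%, 95% Wilson interval 35.2 to 43.0), against 33.4% of all BPP peaks and 45.8% of all shared peaks without IgG. Shared intergenic peaks without a coding or lncRNA gene reached it in 49.8% (47.2 to 52.4), shared peaks inside coding genes in 29.6% (28.0 to 31.3) and shared peaks at a single coding gene's end in 59.3% (57.5 to 61.1). By fold the lncRNA peaks thus lay between those inside and those at the ends of coding genes. Among the 10% of BPP peaks with the highest −log10 p were 129 of them (21.6%), and among the same 10% of the CTR list the partners of 103 (17.3%). In BPP this share was 18.4% of all shared peaks without IgG and 22.6% of shared intergenic peaks without a gene. It was 10.1% of shared peaks inside coding genes and 21.4% of those at a single coding gene's end. The median distance of the lncRNA peaks to the nearest protein-coding gene was 35445 bp. Within 10 kb of a coding gene lay 22.4% of them (19.3 to 26.0), against 21.4% (19.3 to 23.6) of shared intergenic peaks without a gene; the difference of 1.06 percentage points had a Newcombe interval from −2.80 to 5.14, which includes 0. All intervals cover counting error only and treat peaks as independent.

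The 12 lncRNA peaks with the highest −log10 q all stood at one of 2 kinds of place. Of these, 9 lay over genes or pseudogenes of spliceosomal small nuclear RNAs (snRNAs), and 3 over DANT1 and DANT2 on chromosome X. The rule did not use the snRNA annotation, while DANT1 and DANT2 are themselves lncRNA genes of the rule. The observation was made after the peaks had been ranked. Of the top 30, 10 were over snRNA genes or pseudogenes and 10 over DANT2.

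Peaks over U snRNA genes had high folds, including the 2 highest of the set in BPP. U1 and U2 snRNAs recognise the 5′ splice site and the branch point of introns, and the RNVU1 genes are variants of U1. In all, 11 of the 597 peaks overlapped a U snRNA gene or pseudogene (1.84%, 1.03 to 3.27), as did 27 of 1403 shared intergenic peaks without a gene (1.92%, 1.33 to 2.79), 3 of 2930 inside coding genes and 8 of 2833 at a single coding gene's end. The peak over RNVU1-2A, upstream of the start of LOC105379574, had a fold of 13.8 in BPP and 14.7 in CTR (chromosome 1, 144551514 to 144552268). The peak over RNVU1-6, upstream of the start of LINC01719, had a fold of 13.5 in BPP and 14.4 in CTR (chromosome 1, 146051908 to 146052625). At these 2 places the printed lncRNA promoter lies beside the U1 variant under the same peak, so the list cannot say which gene's start is marked. RNVU1-28, which overlaps the end of LOC105379574, had a fold of 11.9 in BPP and 11.2 in CTR.

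RNVU1-30, within LINC00869, had a fold of 11.1 in BPP and 12.4 in CTR (chromosome 1, 149636341 to 149636985). RNVU1-4, within LINC00623, had the lowest BPP fold of the 11, at 8.59, with 10.6 in CTR; the lowest in CTR was 9.27, over LOC124904613. The U1 pseudogenes RNU1-27P and RNU1-28P, both within LOC105370449 on chromosome 14, had folds of 9.53 and 9.83 in BPP, and 11.8 and 10.5 in CTR. The BPP peak over RNU1-27P passed the IgG rule narrowly: it lay 7 bp from an IgG peak, the smallest such distance among the 597. RNU2-63P, whose biotype is snRNA and which lies just before the start of LOC105374852, was covered at the edge of a peak (chromosome 2, 88016520 to 88017670; fold 9.95 in BPP and 10.5 in CTR). Across the 11 the fold ran from 8.59 to 13.8 in BPP and from 9.27 to 14.7 in CTR, against a median of 4.50 in BPP and 4.59 in CTR for the 568 peaks over neither snRNA genes nor DANT2. U1 genes and their variants are near-identical copies, so the placement of reads among them is uncertain.

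Other small RNA genes under these peaks were few. LOC124905432, of biotype rRNA, lay under a peak over LOC124903814 with a fold of 6.96 in BPP and 6.22 in CTR. The −log10 q there was 38.6 in BPP and 30.3 in CTR. VTRNA1-1 and VTRNA1-2, which encode vault RNAs, lay under BPP peaks over LOC105378198 with folds of 7.73 and 6.56. The overlapping CTR peaks had folds of 6.48 and 5.80; the first ended before VTRNA1-1, and the second covered VTRNA1-2. RN7SL2, a gene of the RNA of the signal recognition particle, lay under a peak of fold 4.76 in BPP and 4.63 in CTR. The transfer RNA gene TRL-CAA1-1 was covered in both lists (fold 5.48 in BPP and 5.42 in CTR). The small nucleolar RNA gene SNORA71A within SNHG17 was covered by the BPP peak (fold 3.95) and only in part by the CTR peak (fold 3.37). The transfer RNA gene TRF-GAA1-3 was covered by a BPP peak of fold 2.85, and the CTR peak overlapping that BPP peak, of fold 3.97, ended before the gene. In all, 53 peaks overlapped another annotated gene of any kind, pseudogenes included (8.88%, 6.85 to 11.4). They were a smaller share than the 15.7% (13.9 to 17.7) among shared intergenic peaks without a lncRNA gene.

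**Figure D1:**
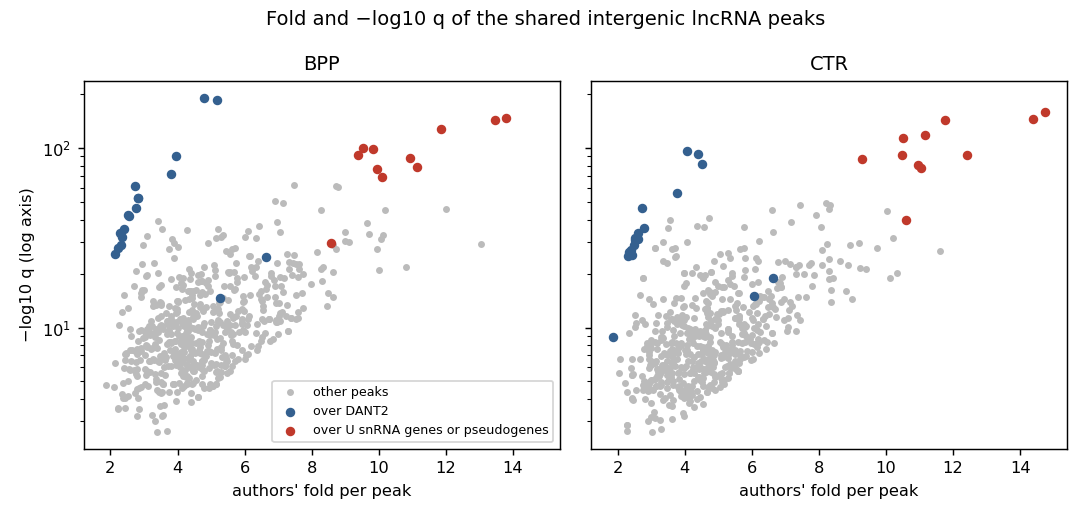
Authors' fold (horizontal axis) and −log10 q (vertical log axis) of the 597 shared intergenic lncRNA peaks, in BPP on the left and of the overlapping CTR peak on the right; each point is 1 peak. The 11 peaks over U snRNA genes or pseudogenes stand at folds of 8.59 and above in BPP, and most of the 18 over DANT2 combine a high −log10 q with a fold under 3.

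DANT2 had the most peaks of any lncRNA gene. DANT1 and DANT2 are noncoding transcripts of DXZ4, a tandem repeat array on the X chromosome known for its role in the folding of the inactive X. DANT2 overlapped 18 of the 597 peaks, 17 of which also overlapped DANT1. The 18 were 3.02% of the set, which had 32 peaks on chromosome X. Over the first 40 kb from the first peak, BPP had 15 peaks, 13 of them among the 597, whose summits stood a median of 2.98 kb apart (0.867 to 4.11 kb), and CTR had 13 peaks a median of 2.9965 kb apart (2.24 to 4.83 kb). Of the gaps, 6 of 14 in BPP and 7 of 12 in CTR were between 2.9 and 3.1 kb. The stretch of 40 kb and these limits were chosen after the peaks had been seen.

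Folds in the array were low and −log10 q high. The 18 peaks had a median fold of 2.75 in BPP and 2.61 in CTR, with 12 under 3 in BPP, and a median −log10 q of 42.0 in BPP and 31.0 in CTR. The strongest peak of the whole set by −log10 q stood just past this stretch (chromosome X, 115885241 to 115886061), with a fold of 4.79 and −log10 q of 191.4 in BPP, and a fold of 4.08 and −log10 q of 96.02 in CTR. Its neighbour (115887342 to 115888019) had a fold of 5.19 and −log10 q of 185.9 in BPP, and a fold of 4.40 and −log10 q of 93.1 in CTR. Farther along, a peak of fold 6.63 in BPP and 6.64 in CTR (115898642 to 115899390) had a −log10 q of 24.6 in BPP and 18.9 in CTR. The IgG list had 1 peak in the span of DANT2, and it lay outside this stretch. That IgG peak, with a fold of 4.62 and −log10 q of 2.79, lay 690 bp from the last of the 18 peaks (115950183 to 115951711). Reads from repeat copies cannot be assigned to 1 copy with certainty, and the number of copies in A2780 cells was not tested.

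**Figure D2:**
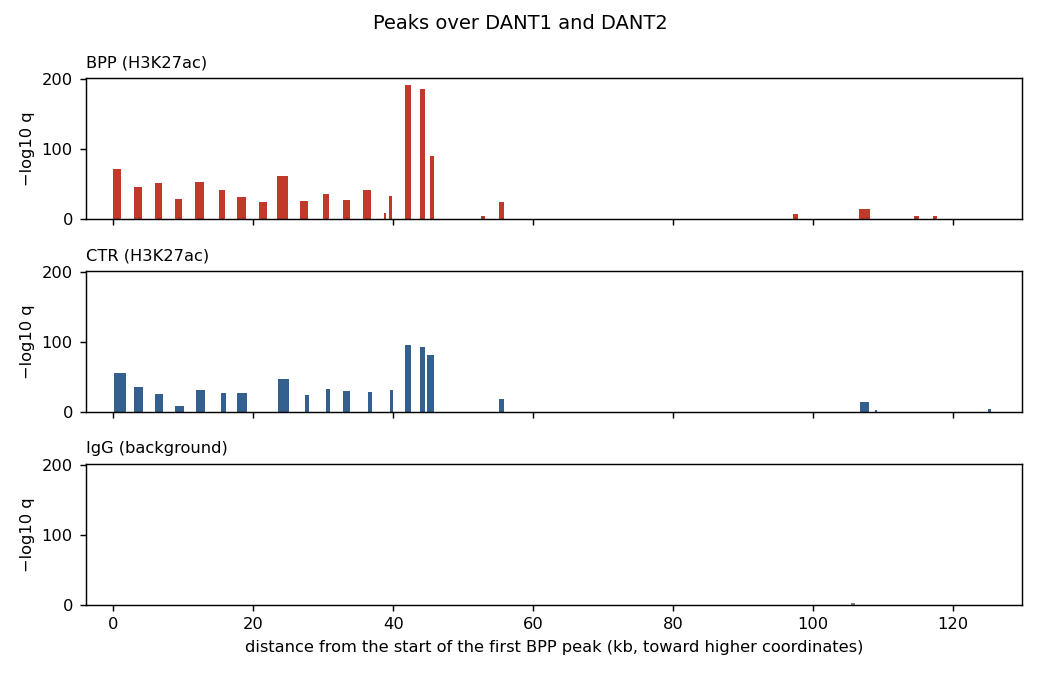
Peaks over DANT1 and DANT2 in the BPP, CTR and IgG lists, by distance from the start of the first BPP peak in kb; each bar spans 1 peak and its height is the authors' −log10 q. Over the first 40 kb the median spacing is 2.98 kb in BPP and 2.9965 kb in CTR, and 3 tall peaks follow in both; IgG has 1 low peak far to the right.

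By gene, 521 of 13892 lncRNA genes with some span outside coding windows had at least 1 of the 597 peaks (3.75%). Of the 521, 434 had 1 peak, 66 had 2 and 21 had 3 or more. Genes with a peak were longer, with a median span of 16.15 kb against 10.4 kb for all 13892. Genes that share a peak are counted each, since 79 peaks overlapped 2 lncRNA genes and 9 overlapped 3. Among those with the most peaks after DANT2 and DANT1 were long loci. SLC38A4-AS1, which runs antisense toward an amino acid transporter gene, had 11 peaks over 268.9 kb on chromosome 12, with folds of 2.44 to 7.17 in BPP and 2.43 to 6.86 in CTR. LINC-PINT, a p53-induced transcript, had 10 peaks with folds of 2.43 to 4.36 in BPP and 2.29 to 4.31 in CTR. Its BPP peaks that start at 130894363 and 130895219 on chromosome 7 overlapped the same CTR peak. PVT1, the neighbour of MYC, had 9 peaks with folds of 2.44 to 4.13 in BPP and 2.76 to 4.56 in CTR; its peak of highest −log10 q in BPP lay at chromosome 8, 127853670 to 127854777 (−log10 q 28.2 in BPP and 36.6 in CTR).

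MIR4435-2HG had 8 peaks with folds of 3.52 to 7.14 in BPP and 3.09 to 6.02 in CTR. Its strongest (chromosome 2, 111452198 to 111454034) had a fold of 7.14 and −log10 q of 49.5 in BPP, and a fold of 4.88 and −log10 q of 23.6 in CTR. CYTOR is a near-identical copy of part of this gene elsewhere on chromosome 2, and its strongest peak (87496524 to 87497682) had a fold of 6.42 in BPP and 5.36 in CTR; how reads divide between the copies is uncertain. MIR99AHG had 5 peaks over 561.2 kb, with a median fold of 6.002 in BPP and 7.36 in CTR. In each of these genes the range of folds in BPP overlapped the range in CTR.

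**Figure D3:**
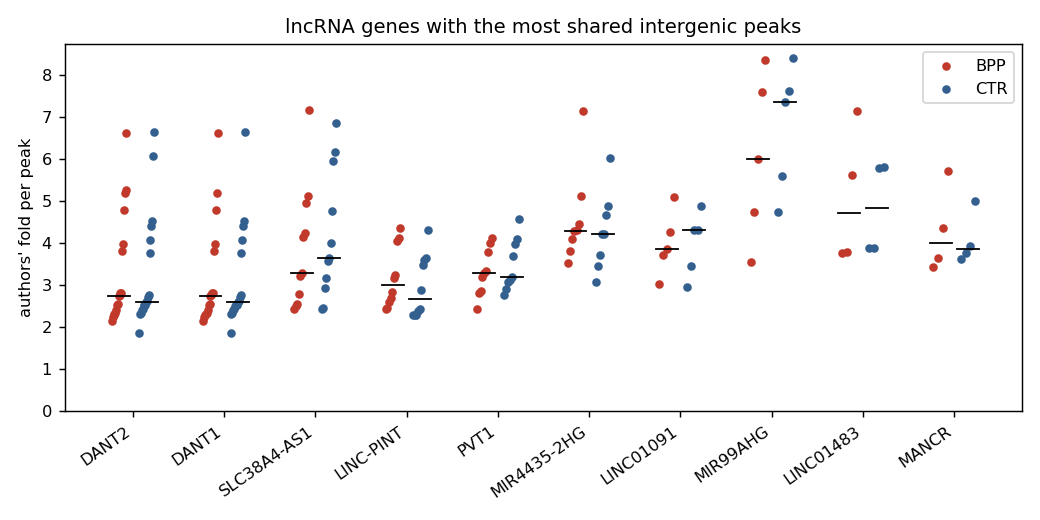
Authors' fold of each shared intergenic peak over the 10 named lncRNA genes with the most such peaks, BPP in red and the overlapping CTR peak in blue; black lines are medians over the peaks of a gene. BPP and CTR ranges overlap in all 10 genes, and the medians are lowest over DANT2, DANT1 and LINC-PINT in both lists. DANT1 and DANT2 share 17 peaks.

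Sorted by the kind of symbol, 9 of 25 small nucleolar RNA host genes named SNHG had a peak (36.0%), 10 of 78 microRNA host genes (12.8%), 62 of 589 with another gene symbol (10.5%), 123 of 2239 named LINC (5.49%), 40 of 1053 antisense genes (3.80%), 262 of 9331 without an approved symbol (2.81%) and 14 of 559 divergent transcripts (2.50%). The overall share was 3.75%. Divergent transcripts start next to a coding gene, and the rule leaves out peaks there. The SNHG genes were the shortest class, with a median of 5.67 kb outside coding windows, against 22.6 kb for microRNA host genes and 16.0 kb for LINC genes. Of the genes with a peak, 50.3% had no approved symbol.

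SNHG genes carry small nucleolar RNAs, which guide the modification of ribosomal RNA, in their introns. A list of 31 eligible genes taken as snoRNA hosts, these and others, had a peak at 11 (35.5%), which adds CYTOR and LINC-PINT to the 9 SNHG genes. Both are also in the list of cancer lncRNA genes below, and whether they hold a snoRNA was not tested. The 9 SNHG peaks had a median fold of 5.48 in BPP (3.95 to 7.75) and 5.50 in CTR (3.37 to 6.51), and 7 of the 8 peaks whose gene had a known strand overlapped the window at the 5′ end. SNHG33 had a fold of 7.75 in BPP and 5.50 in CTR (chromosome 3, 183447373 to 183447946). SNHG15 had a fold of 5.99 in BPP and 5.62 in CTR, SNHG32 one of 5.49 in BPP and 5.77 in CTR, and SNHG30 one of 5.48 in BPP and 6.51 in CTR, the highest CTR fold of the 9. SNHG26, SNHG5, SNHG16, SNHG21 and SNHG17 had folds of 5.51, 5.09, 4.61, 4.45 and 3.95 in BPP, and 4.53, 5.53, 4.21, 4.67 and 3.37 in CTR. The promoter of SNHG33 holds 2 CCAAT boxes, both read on the strand opposite to the one printed.

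There were 55 lncRNA genes known from cancer studies with some span outside coding windows. Of these, 13 had such a peak (23.6%), against 3.75% of all lncRNA genes with such span. The list was chosen with results of these data known. Its genes were not matched for length: of the 13, PVT1 spans 306.7 kb and NORAD 5.34 kb. The part of length in the share was not tested. MALAT1, an abundant RNA of nuclear speckles, had a peak over its start (chromosome 11, 65496827 to 65498602) of fold 3.06 in BPP and 3.70 in CTR, and another 3′ of it of fold 3.48 in BPP and 3.77 in CTR. NEAT1, the scaffold of paraspeckles, had 1 peak of fold 2.83 in BPP and 3.02 in CTR. NORAD, which binds Pumilio proteins, had a peak of fold 5.26 and −log10 q of 13.9 in BPP, and a fold of 10.03 and −log10 q of 44.9 in CTR (chromosome 20, 36050327 to 36051286). The folds of NORAD were the farthest apart of those named here; depth and background are unknown, and the gap had no replicate check. LINC00467 had a fold of 7.33 in BPP and 8.30 in CTR, and PCAT7 6.89 in BPP and 6.91 in CTR. JPX and FTX, transcripts of the X-inactivation centre, had folds of 7.24 and 6.66 in BPP, and 6.97 and 5.13 in CTR. XIST, of the same locus but not among the 13, also had a peak, named after its values were seen. Its fold was 8.47 in BPP and 5.50 in CTR. LINC00662, OIP5-AS1 and MIAT had folds of 5.94, 4.04 and 3.62 in BPP, and 4.99, 4.38 and 4.54 in CTR.

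Of 40 eligible genes in a list of microRNA host genes, 7 had one of the 597 peaks (17.5%), against 3.75% of all eligible lncRNA genes. These genes were not matched for length either. Any BPP peak was present at 12 genes of this list, any CTR peak at 10 and an IgG peak at 9. The same counts were 19, 17 and 5 for the cancer list, and 21, 24 and 1 for the list of snoRNA hosts. The share of all lncRNA genes with any such peak is not given here, and nothing is read from these counts. Within 5 kb of a microRNA hairpin lay 14 of the 597 peaks (2.35%, 1.40 to 3.90), against 2.22% of all shared BPP peaks without IgG and 2.08% of all BPP peaks. Mature sequences of 7 of those microRNAs are shown because they lie near peaks over host genes named here; they are from RefSeq, 5′ to 3′, with the seed (bases 2 to 8) in capitals, and all 7 seeds differ.
hsa-let-7i-5p: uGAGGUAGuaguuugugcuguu
hsa-miR-193b-3p: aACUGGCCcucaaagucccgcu
hsa-miR-365a-3p: uAAUGCCCcuaaaaauccuuau
hsa-miR-23a-3p: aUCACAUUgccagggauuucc
hsa-miR-27a-3p: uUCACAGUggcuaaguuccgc
hsa-miR-24-3p: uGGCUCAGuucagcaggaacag
hsa-miR-374a-3p: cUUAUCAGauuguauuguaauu
The let-7i hairpin, of the tumour-suppressive let-7 family, lay 672 bp from a peak over MIRLET7IHG and LINC01465 (chromosome 12, 62602468 to 62603014; fold 6.21 in BPP and 6.14 in CTR). A peak within MIR193BHG (chromosome 16, 14307068 to 14308558) lay between the hairpins of miR-193b, 3019 bp away, and miR-365a, 727 bp away, with a fold of 3.49 in BPP and 3.59 in CTR. MIR23AHG had 3 peaks upstream of the hairpins of miR-23a, miR-27a and miR-24, the nearest 2272 bp from miR-23a, with folds of 2.48, 2.44 and 2.60 in BPP, and 2.43, 2.43 and 2.21 in CTR; the first and second of these BPP peaks overlapped the same CTR peak. The miR-374a hairpin lay 4534 bp from the FTX peak. MIR31HG had a fold of 6.18 in BPP and 3.85 in CTR, and MIRLET7A1HG 5.56 in BPP and 4.37 in CTR.

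The position of peaks within the lncRNA genes was examined because the rule treated both ends of a gene alike. Of the 597 peaks, 302 (50.6%, 46.6 to 54.6) overlapped a 1 kb end window of a lncRNA gene and 295 lay farther inside. Strand and start were known for genes under 446 peaks, and 86 of these (19.3%, 15.9 to 23.2) covered an annotated start. Of the 446, 151 overlapped a 5′ window only, 45 a 3′ window only, 27 both kinds and 223 neither. The 5′ share among peaks at 1 kind of end was 77.0% (70.7 to 82.4). For shared peaks at a single coding gene's end it was 95.4% (94.5 to 96.2), from 2246 at 5′ and 108 at 3′ windows. The lncRNA share was 18.4 percentage points lower (−18.4, Newcombe interval −24.8 to −13.0). The rule leaves out peaks within 1 kb of a coding gene, and with them lncRNA starts beside one. The part of this in the difference was not tested. Of the 446, 161 BPP summits and 162 CTR summits lay within 1 kb of an annotated start, with 102 BPP and 106 CTR summits on the transcribed side of it.

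**Figure D4:**
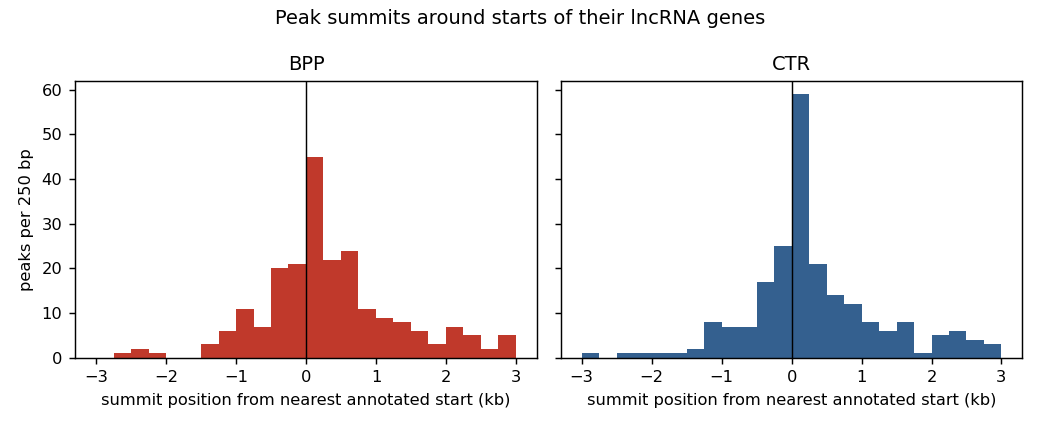
Position of peak summits from the nearest annotated start of the overlapped lncRNA gene, in kb, positive in the direction of transcription, for BPP on the left and the overlapping CTR peak on the right; bars count peaks per 250 bp. In both lists the summits are densest just past the start, with 102 BPP and 106 CTR summits within 1 kb downstream.

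The starts under these peaks were rich in CpG, which the rule did not use. Most vertebrate CpG is methylated and depleted, and promoters that are active in many tissues tend to keep it. In the 300 bases around 101 annotated starts of 90 lncRNA genes under a peak, the median ratio of observed to expected CpG was 0.727 (quartiles 0.538 to 0.850). The ratio was 0.6 or more at 69 of the 101 (68.3%, 58.7 to 76.6). Of 7157 other lncRNA starts away from coding genes, 11.9% (11.2 to 12.7) reached it, which is 56.4 percentage points fewer (Newcombe interval 46.8 to 64.7). Coding gene starts under a shared peak reached it in 87.4% (86.1 to 88.5), so that the lncRNA share was lower by 19.05 points (−19.05, interval −28.7 to −10.7). Median G+C content was 60.7% at the lncRNA starts under a peak, 46.3% at the other lncRNA starts and 61.7% at the coding starts. Of the starts printed above, MALAT1 had a ratio of 0.925, LOC105379574 of 0.884, LOC105374852 of 0.814, SNHG33 of 0.774, LINC01719 of 0.727 and PCAT7 of 0.441.

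Promoter motifs were searched as exact letters on both strands of the same 300 bases. The 8 motifs were the CCAAT box (CCAAT), the GC box (GGGCGG), the TATA box (TATAAA), the cyclic AMP response element (TGACGTCA), an ETS motif (CCGGAAGT), an NRF1 motif of 10 letters, given by name,, AP-1 (TGANTCA) and the E-box (CACGTG); none of them contains another. GC boxes were in 49.5% of the lncRNA starts under a peak (39.95 to 59.1), in 14.7% of the other lncRNA starts and in 64.3% of coding starts under a shared peak, and in 45.03% of all promoters of the table. The difference from other lncRNA starts was 34.8 points (25.2 to 44.4). The TATA box was in 9.90%, against 18.7% of the other lncRNA starts (−8.84 points, −13.4 to −1.41) and 11.5% of all promoters. It was more frequent than at coding starts under a shared peak (5.10%; 4.80 points, 0.278 to 12.2). ETS motifs were in 6.93%, against 0.908% of the other lncRNA starts (6.02 points, 2.48 to 12.7) and 4.14% of all promoters, and were less frequent than at the coding starts (14.3%; −7.42 points, −11.2 to −0.611). The cyclic AMP response element was in 5.94%, 5.27 points more than in other lncRNA starts (2.07 to 11.7), and in 1.85% of all promoters. NRF1 motifs were in 2.97%, 2.54 points more (0.574 to 7.94), and in 1.24% of all promoters. For the CCAAT box (36.6% against 36.9%; 34.6% of all), AP-1 (10.9% against 12.1%; 7.68% of all) and the E-box (7.92% against 4.60%; 7.27% of all) the interval of the difference from other lncRNA starts included 0. AP-1 motifs were more frequent than at the coding starts (4.60%; 6.29 points, 1.51 to 13.9). For the CCAAT box (40.8% of coding starts), the cyclic AMP response element (3.78%), NRF1 (2.86%) and the E-box (8.74%) the interval of the difference from coding starts included 0. For the GC box that difference was −14.8 points (−24.6 to −5.09). The promoter of MALAT1 held 5 GC boxes and that of PCAT7 a CCAAT box. The sets also differ in G+C content, as given above; its part in the motif shares was not tested, and a match is not a bound site.

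**Figure D5:**
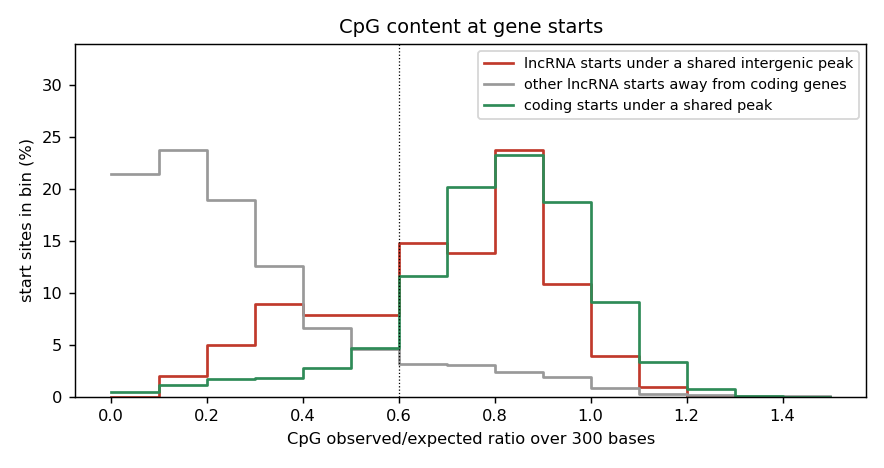
Share of start sites (vertical axis, percent) by CpG observed/expected ratio over 300 bases (horizontal axis) for lncRNA starts under a shared intergenic peak, other lncRNA starts away from coding genes and coding starts under a shared peak; the dotted line marks 0.6. The first and last sets reach 0.6 in 68.3% and 87.4% of starts, the other lncRNA starts in 11.9%.

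Starts under these peaks also had near-copies more often. An exact run of 50 bases was found in a promoter at another place for 13 of the 101 starts (12.9%, 7.68 to 20.8), against 3.79% of the other lncRNA starts (difference 9.08 points, 3.87 to 17.01) and 2.03% of coding starts under a shared peak. LOC105379574 and LINC01719 are such a pair. For starts of this kind, how reads were placed between copies is not stated in the notes used here, and the part of copies in the peak values was not tested.

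Markers of the labelled cell type were checked at coding gene ends. Among 16 markers of ovarian carcinoma or epithelium, a peak was present for 3 in BPP (KRT8, KRT18 and MSLN) and 2 in CTR (KRT8 and KRT18); PAX8, WT1, MUC16 and EPCAM had none in either. Of 5 mesenchymal markers, 3 had a peak in BPP (VIM, SPARC and ZEB1) and 2 in CTR (VIM and ZEB1), and of 4 leukocyte markers none had one in either. The share of all coding genes with a peak at an end is not given here. Nothing on the identity of the cells is therefore read from these counts.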

How the data were processed

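CUT&Tag peak lists of 3 libraries were used, grouped by sample title, with 1 library per group. The tools named in the submitters' processing notes are Bowtie2 2.4.1, deepTools 3.3.0 and fastp, with build GRCh38.p13. Which peak caller and control made the lists is not given in the sources used here. A list for each library was deposited by the authors; read depth is unknown. In each list the deposited score is a truncated multiple (10) of −log10 p, the authors' fold is a ratio over an undescribed background, and each peak has a −log10 p-value and a −log10 q-value as deposited. None was recomputed.

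Only chromosomes 1 to 22 and X entered (17841 BPP, 14836 CTR and 7701 IgG). Genes came from RefSeq GRCh38.p14, which shares chromosome coordinates with p13; strand and starts came from its promoter table, which covered 11383 of 18177 lncRNA genes and held none on chromosome 8. Shares carry 95% Wilson and differences Newcombe intervals. Python 3.11.15, pandas 2.3.3, numpy 2.4.6, scipy 1.17.1 and matplotlib 3.10.9 were used, and overlaps were checked against bedtools 2.31.1 on a simulated list. Members and gene lists were chosen with earlier results of these data known. Named peaks were the 12 of highest −log10 q, those of the 6 genes with most peaks, up to 6 per list, the 4 widest and the 4 nearest a coding window; the other peaks over small RNA genes and the remaining list genes were named after their values were seen. Alternatives covered the overlap, windows, thresholds, list length, IgG distance and counting from CTR.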

Additional observations from a re-analysis of the deposited data

How the results depend on the processing

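The count of 597 peaks stayed within 1.5 times under 7 alternatives and moved to 174 with a fold of 5 or more in every list and to 210 with the 5000 peaks of highest −log10 p of BPP and CTR; the 521 genes moved to 191 and 203 in the same settings, where fewer peaks enter. The share at a lncRNA gene end (50.6%) was 42.0% with windows of 500 bp, 58.5% with 2 kb, 60.3% with a fold of 5 or more and 57.1% with the 5000 top peaks. The median −log10 q (10.2) was 10.9 with 50% overlap of both peaks, 12.04 with −log10 q of 5 or more, 15.5 with a fold of 5 or more, 19.6 with the 5000 top peaks and 8.33 from the rows of the CTR list. Left out after seeing the data, peaks over U snRNA genes or pseudogenes and DANT2 reduced the set to 568 peaks at 510 genes, with a share of 51.9% and a median of 9.75. No paired analysis was possible because each group had 1 library. A threshold may differ in strictness between lists, and unknown depth limits every statement on presence in 1 list.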

Other observations

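Among the 4 widest peaks, all over lncRNA genes without an approved symbol, LOC105377134 on chromosome 21 had a width of 3335 bp with a fold of 3.76 in BPP and 4.08 in CTR, and LOC105372952 on chromosome 22 a width of 3167 bp with a fold of 2.901 in BPP and 2.93 in CTR. LOC105377635 on chromosome 2 (2788 bp) had a fold of 3.09 in BPP and 3.57 in CTR, and LOC105377609 on chromosome 4 (2701 bp) a fold of 4.28 in BPP and 4.35 in CTR. Outside the snRNA genes and DANT2, the peaks of highest −log10 q in BPP were at LOC105375805 on chromosome 8 (62.1 in BPP and 49.6 in CTR), LOC107986087 on chromosome 3 (61.9 in BPP and 48.5 in CTR) and LINC01004 on chromosome 7 (61.1 in BPP and 45.7 in CTR), named after their values were seen. MANCR, a lncRNA named for its link to mitosis, had 4 peaks with folds of 3.43 to 5.71 in BPP and 3.61 to 4.99 in CTR. CYKILR had 4 peaks with folds of 2.22 to 4.16 in BPP and 2.77 to 4.34 in CTR.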
